A study of Mus musculus with 46 samples.

Results

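TRBV5 (Vβ1) is 1 of the 23 V segments listed in the T cell receptor beta (TCRβ) libraries analysed. The mice were naive or had experimental autoimmune encephalomyelitis (EAE), an induced disease that models multiple sclerosis. It was taken as every deposited row whose V segment was TRBV5, which gave 12513 of 153913 rows. A row is a rearrangement, that is, a CDR3 nucleotide sequence with its V and J segment and its reads. These rows held 11438 distinct CDR3 nucleotide sequences and 9783 of the 122578 clonotypes. A clonotype, also called a receptor here, is the combination of V segment and CDR3 protein sequence. The segment is Trbv5 (gene ID 100124661) at chr6:41062359-41062803 of GRCm38.p6, annotated as a V segment of 445 bases in the TCRβ locus.

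A TCRβ chain is assembled in the thymus by joining 1 V, 1 D and 1 J segment, and each joint can lose germline bases and gain added ones. The joint lies in the CDR3 loop, which contacts the antigenic peptide, whereas the V segment also encodes the loops that mostly contact the MHC molecule. Because the genetic code is redundant, separate rearrangements can give the same CDR3 protein sequence from different nucleotide sequences. Nucleotide sequences that differ at a single base can also arise by PCR or sequencing error, and how often this happened was not tested. In EAE, CD4+ T cells that recognise myelin enter the central nervous system (CNS), and regulatory T cells (Treg), marked by the transcription factor Foxp3, restrain them.

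The series concerns pregnancy and autoreactive regulatory T cells. In wild-type C57BL/6 mice that had EAE and were not pregnant, CD8- T cells came from the CNS (3 libraries) and from the periphery, which is spleen and lymph nodes (3 libraries). The other 11 libraries held CD4+Foxp3+ Treg or CD4+Foxp3- conventional T cells (Tcon) taken from the same organs of DEREG mice, in which a transgene marks Foxp3-expressing cells. Treg came from EAE mice at embryonic day 18 of pregnancy (E18, 5 libraries), 1 sample of non-pregnant EAE mice and 1 of non-pregnant naive mice. Tcon came from 1 sample for each pairing of EAE or naive with E18 or not pregnant. The labels give neither age nor whether animals were pooled, so p-values measure only the spread between these samples, which may be technical.

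TRBV5 was chosen for its share in CNS against periphery libraries, so every CNS value below is a description and carries no test. Library totals were 278420 to 571124 reads over 1698 to 19898 rearrangements, with the 3 CNS libraries at the low end (1698 to 3078). Where a receptor has no reads, up to 3 reads remain possible, or 0.000525% to 0.00108% of a library's total. PCR reads were counted with no molecular identifiers, so such limits and the Wilson intervals below cover counting error only, and the number of cells behind a library is unknown. More cells of a clone and more DNA copied per cell cannot be told apart. The files hold no gene expression, so the labelled cell types could not be checked against markers. All Treg libraries carry 1 run code, all Tcon libraries another, and the CNS and periphery libraries yet another, so a Treg to Tcon difference and a run difference cannot be told apart. V segments favoured by natural killer T cells (TRBV13-2, TRBV29 and TRBV1) together held 25.4% to 32.3% of CNS clonotypes, 23.3% to 25.3% of periphery clonotypes, 20.04% to 24.8% of Treg clonotypes and 21.1% to 25.3% of Tcon clonotypes, and their part in the results was not tested.

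Some libraries share identical TRBV5 rearrangements, that is, the same V, J and CDR3 nucleotide sequence. The CNS libraries shared 12, 49 and 61 in pairs, CNS replicate 2 and periphery replicate 1 shared 65, and Treg EAE E18 replicates 1 and 3 shared 91. Treg and Tcon of EAE E18 mice with replicate number 5, which lie in different runs, shared 35 (30 after the carry-over filter), where the median between Treg and Tcon libraries was 6.5. The median was 14 between periphery libraries and 15 between Tcon libraries. Rows were therefore also analysed after a carry-over filter, which drops a rearrangement where another library holds it with at least 100 times the reads. It removed 21.9%, 8.89% and 5.26% of the TRBV5 rows of CNS replicates 1, 2 and 3, 1.44% to 5.05% in the periphery, 0.137% to 10.7% in Treg and at most 0.160% in Tcon, and never more than 1.59% of a library's TRBV5 reads. Receptors found in several libraries are counted after this filter, and all other values are from all rows unless stated.

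After the filter, 4 TRBV5 receptors were found in all 3 CNS libraries, of 16 receptors of any V segment and 5435 CNS receptors in all (0.294%). In the periphery it was 0 of 1717 TRBV5 receptors, beside 23 of 23862 receptors of any V segment (0.0964%). The CNS receptors are named here by the amino acids of the loop without the conserved first cysteine and the last phenylalanine, and their nucleotide sequences are shown because they tell whether the libraries share a nucleotide sequence or only its translation. Each runs 5′ to 3′ from the cysteine codon, with the bases between the V part and the J part in capitals, and all belong to the TCRβ locus on chromosome 6.
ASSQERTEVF, CNS replicate 1 and periphery replicate 1: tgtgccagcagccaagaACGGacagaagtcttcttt
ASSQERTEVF, CNS replicate 2: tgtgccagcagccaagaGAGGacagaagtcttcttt
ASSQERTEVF, CNS replicate 2: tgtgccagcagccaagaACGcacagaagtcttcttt
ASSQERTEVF, CNS replicate 3: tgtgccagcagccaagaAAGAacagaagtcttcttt
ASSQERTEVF, periphery replicate 3: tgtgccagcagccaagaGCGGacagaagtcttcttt
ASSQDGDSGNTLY, CNS replicates 1 and 3: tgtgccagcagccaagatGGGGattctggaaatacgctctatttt
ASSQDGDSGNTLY, CNS replicate 2 and periphery replicate 3: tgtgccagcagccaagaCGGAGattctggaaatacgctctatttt
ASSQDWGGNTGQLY, all 3 CNS and periphery replicate 1: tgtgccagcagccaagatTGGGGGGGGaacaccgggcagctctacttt
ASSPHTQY, all 3 CNS and periphery replicates 1 and 2: tgtgccagcagccCTCacacccagtacttt

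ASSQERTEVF was encoded by 4 different nucleotide sequences in the CNS, and no sequence of it was common to any pair of CNS libraries. It had 64, 192 and 167 reads in CNS replicates 1, 2 and 3, which is 0.0187%, 0.0517% and 0.0497% of each library, against 44 reads (0.0133%) and 69 reads (0.0177%) in periphery replicates 1 and 3 and none in periphery replicate 2. The Tcon library of naive E18 mice had 1 read that the filter dropped. It joins TRBV5 to TRBJ1-1 with 3 or 4 bases between them and no D segment was assigned. The share in CNS replicate 1 (64 reads) and that in periphery replicate 3 (69 reads) were nearly alike, and the other 2 CNS shares were higher. Receptors found in every CNS library were chosen for that, so lower shares in the periphery would be partly built in.

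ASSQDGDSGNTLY was the most abundant receptor of the 4, with 60, 690 and 191 reads in CNS replicates 1, 2 and 3 (0.0176%, 0.186% and 0.0568%) and, in the periphery, 51 reads in replicate 3 (0.0131%). It uses TRBJ1-3, and 2 nucleotide sequences encoded it. CNS replicates 1 and 3 held one of them, and CNS replicate 2 and periphery replicate 3 the other. After the filter each CNS library held a single rearrangement of it, while with all rows CNS replicate 1 had 66 reads and periphery replicate 1 had 1.

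The other 2 receptors rest on few reads. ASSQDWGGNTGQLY, with TRBJ2-2 and a D segment, had 1, 1 and 95 reads in CNS replicates 1, 2 and 3 and 16 and 106 reads in periphery replicates 1 and 2. Its CNS reads all came from 1 nucleotide sequence, and different sequences encoded it in periphery replicate 2 and in Tcon of naive non-pregnant mice (16 reads). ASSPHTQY had 1, 2 and 2 reads in the CNS and 2 reads each in periphery replicates 1 and 2, all within the limit of 3 reads. They always came from the same nucleotide sequence, listed under TRBJ2-4 in some libraries and TRBJ2-5 in others. With at least 2 reads per rearrangement, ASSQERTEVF and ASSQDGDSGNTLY were the 2 TRBV5 receptors left in all 3 CNS libraries.

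Counting receptors in at least 2 CNS libraries gave 52 of 551 TRBV5 receptors (9.44%), beside 7.64% of the CNS receptors of all V segments, and TRBV5 ranked 5 among the 23 V segments. TRBV21 (16.7% of 12 receptors), TRBV19 (10.9%), TRBV14 (9.68%) and TRBV16 (9.54%) ranked above it. This count depends on the filter: it was 111 of 575 with all rows and 20 of 529 with the filter at 20 times the reads. In the periphery, 50 of 1717 TRBV5 receptors (2.91%) were in at least 2 libraries, beside 2.64% for all V segments, and these libraries hold more receptors and fewer reads for each.

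Some receptors were shared by at least 1 pair of CNS libraries that had no nucleotide sequence of it in common. Another pair could still share a sequence, as for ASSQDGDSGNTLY. Sequences that differ at a single base count as different here. Such receptors numbered 13 for TRBV5, or 2.36% of those in the CNS, and 12 both with all rows and with the filter at 20 times. The filter drops only rearrangements that another library also holds. Dropping one can take a receptor out of this count, or add one whose libraries then have no sequence in common. The count can thus move either way, and a steady count shows nothing about carry-over. For the other V segments together it was 49 of 4884 (1.003%), with 42 and 53 under the same alternatives. The periphery values were 32 of 1717 TRBV5 receptors (1.86%) and 320 of 22145 receptors of other V segments (1.45%).

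Among the 52 recurrent receptors, 17 were also found in the periphery, 13 in Tcon and 7 in Treg, 5 of these in Treg of EAE E18 mice, and 30 were found in CNS libraries only. As shares these were 32.7%, 25% and 13.5%, and 57.7% in CNS only, where the 363 recurrent receptors of other V segments had 24.5%, 17.4% and 16.0%, and 61.4% in CNS only. Of all TRBV5 receptors of periphery replicates 1, 2 and 3, 5.69%, 7.58% and 6.20% were also found in the CNS, and for other V segments 3.96%, 4.45% and 4.24%. The 52 recurrent TRBV5 receptors carried 5.59%, 11.9% and 38.2% of the TRBV5 reads of CNS replicates 1, 2 and 3. Elsewhere they carried 1.37% to 2.16% in the periphery, 0% to 0.525% in Treg and 0.551% to 5.43% in Tcon, where the highest value was that of the EAE E18 library. CNS replicate 3, with the fewest rearrangements, thus had the highest share. The 52 receptors were chosen because CNS libraries hold them. A higher share in the CNS than elsewhere is therefore built in, and it does not show enrichment.

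The 10 recurrent receptors with the largest mean share of CNS reads included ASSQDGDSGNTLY and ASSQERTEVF, and each of the other 8 was in 2 CNS libraries. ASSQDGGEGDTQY led with 2216 reads in CNS replicate 3 (0.659%, the largest TRBV5 receptor there) and 98 reads in CNS replicate 2 (0.0264%). With all rows CNS replicate 1 had 13 reads of it, which the filter dropped, and periphery replicate 1 had 1 read with the filter. It was encoded by 2 sequences in CNS replicate 3 and by another in CNS replicate 2, shown because of how they differ. The less abundant sequence of CNS replicate 3 and that of CNS replicate 2 each differ from the most abundant one at a single base. Whether PCR or sequencing error made these differences was not tested.
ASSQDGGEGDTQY, CNS replicate 3, 2085 reads: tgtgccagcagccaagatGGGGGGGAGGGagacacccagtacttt
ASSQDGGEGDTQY, CNS replicate 3, 131 reads: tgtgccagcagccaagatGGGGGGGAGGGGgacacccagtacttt
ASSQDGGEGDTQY, CNS replicate 2, 98 reads: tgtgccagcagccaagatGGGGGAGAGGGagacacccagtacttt

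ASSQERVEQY had 333 reads in CNS replicate 2 and 123 in CNS replicate 3, against 23 and 68 reads in periphery replicates 1 and 3, and it was also listed in the Tcon library of EAE E18 mice (78 reads) and in Treg EAE E18 replicate 2 (2 reads). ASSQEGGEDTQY had 580 reads in CNS replicate 2 and 4 in CNS replicate 3, from different nucleotide sequences, against 78 reads in periphery replicate 2, and 11 to 50 reads in 3 Tcon libraries. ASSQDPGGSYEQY (794 reads in CNS replicate 2 and 48 in CNS replicate 1) and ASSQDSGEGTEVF (533 in CNS replicate 1 and 55 in CNS replicate 3) had 0 reads after the filter in every periphery library, against 3 reads and 1 read with all rows, and the second of them had 1 read in each of 2 Tcon libraries. AGTPGQSSGNTLY, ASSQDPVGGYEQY and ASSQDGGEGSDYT each had 330 to 868 reads in CNS replicate 3 and 7 to 11 reads in 1 other CNS library. Each came from a single nucleotide sequence, and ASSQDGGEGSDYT also had 5 reads in periphery replicate 1. The carry-over filter at 20 times would drop the 7 to 11 reads, because CNS replicate 3 held more than 20 times as many. With that filter AGTPGQSSGNTLY, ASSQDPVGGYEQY and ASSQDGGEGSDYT would no longer be in more than 1 CNS library. All receptors listed here were chosen by their CNS reads, so lower reads in the periphery, Treg and Tcon are partly built in.

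In 9 of these 10 receptors the CDR3 began with CASSQ, which the TRBV5 segment encodes. In 9 of 10 position 6 was acidic (aspartate or glutamate), with positions counted from the cysteine as 1. Counts over these 10 hold for the list made with the carry-over filter at 100 times. Hydrophobic residues at both positions 6 and 7, a feature that has been linked to self-reactivity in mouse T cells, were in 0 of the 10. Over all TRBV5 clonotypes that feature had shares of 2.21%, 2.67% and 1.81% in CNS replicates 1, 2 and 3, against 1.15%, 1.42% and 1.02% in the periphery. All CNS shares were higher, as for 2 of 16 V segments (12.5%). They rest on few clonotypes, since CNS replicates 1, 2 and 3 held 272, 262 and 166 TRBV5 clonotypes in all. At such shares 0 of 10 is uninformative. CDR3 lengths were 12 to 15 amino acids, counted from the cysteine to the phenylalanine.

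By clonotypes, TRBV5 was the second most used V segment in each CNS library. Its share was 9.14%, 11.0% and 10.1% of clonotypes in CNS replicates 1, 2 and 3, against 6.91%, 8.16% and 6.68% in periphery replicates 1, 2 and 3. The CNS values averaged 10.1% ± 0.95 and the periphery values 7.25% ± 0.79 (SD, n = 3 each), a log2 ratio of 0.48. All CNS libraries lay above all periphery libraries, which held for 4 of 22 V segments (18.2%). The others were TRBV13-2 (log2 ratio 0.47), TRBV20 (0.50) and TRBV21 (0.83, at 0.207% of CNS clonotypes). By reads the groups overlapped for TRBV5, with 5.26%, 11.5% and 5.81% in CNS replicates 1, 2 and 3, against 2.56%, 7.52% and 3.08% in periphery replicates 1, 2 and 3. No V segment had all CNS libraries above all periphery libraries by reads (0%).

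**Figure D1:**
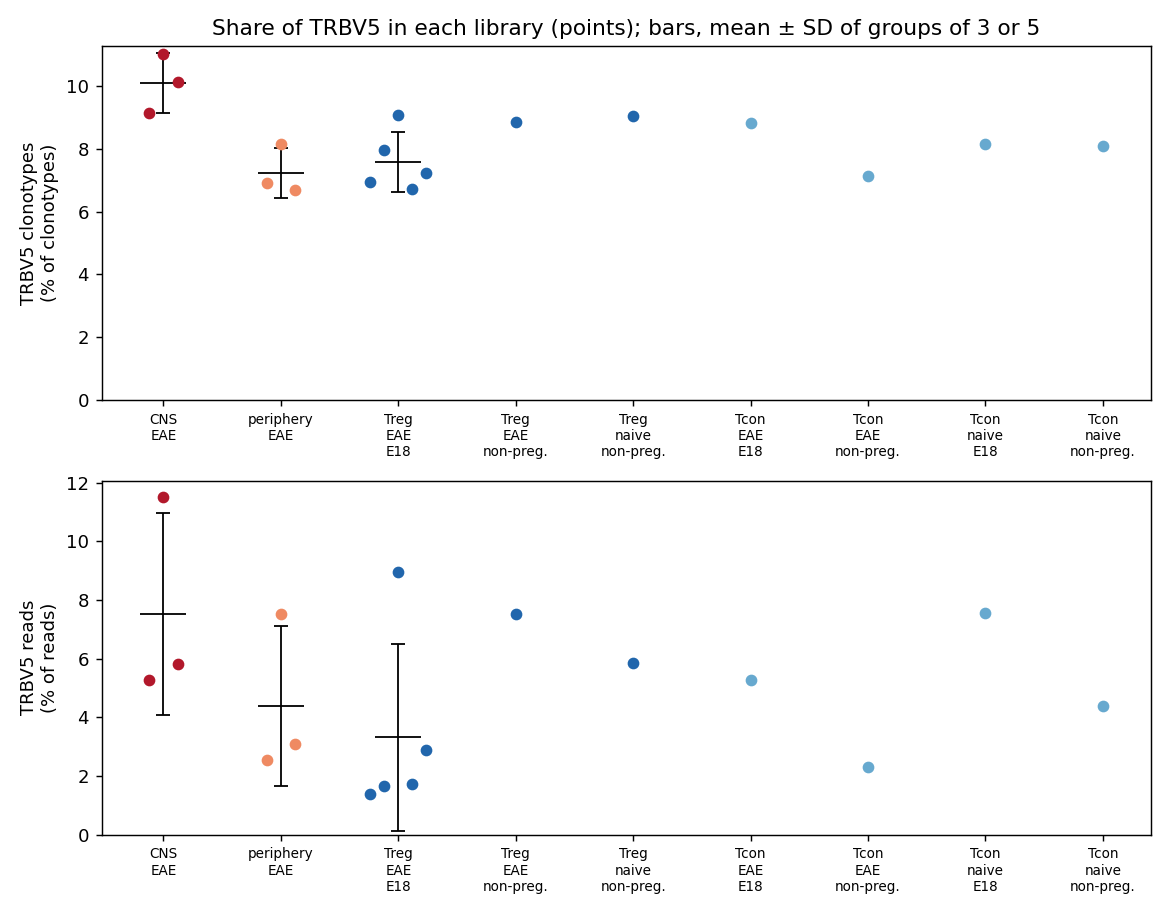
TRBV5 as a percent of the clonotypes (top) and of the reads (bottom) of each of 17 libraries, with the mean ± SD drawn for groups of 3 or 5. The CNS points (9.14% to 11.0% of clonotypes) lie above the periphery points (6.68% to 8.16%), and by reads 1 Treg library of EAE E18 mice stands at 8.94%, above the other 4 of its group.

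The V segments that lie before TRBV5 on the chromosome were not higher in the CNS. TRBV4, the nearest, held 2.69% to 3.70% of CNS clonotypes and 4.47% to 4.998% of periphery clonotypes. TRBV3 held 5.07% to 6.74% of CNS and 7.66% to 8.10% of periphery clonotypes. TRBV2 (6.99% to 7.76% and 7.73% to 8.26%) and TRBV1 (4.40% to 6.70% and 6.42% to 8.02%) overlapped between CNS and periphery. Over the 17 libraries the shares of clonotypes most like that of TRBV5 were those of TRBV21 (Spearman's rho 0.43), TRBV19 (0.29) and TRBV29 (0.28), all of which share library and total with it.

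The 10 largest TRBV5 clonotypes held 65.2%, 41.8% and 52.4% of the TRBV5 reads in CNS replicates 1, 2 and 3, against 6.75%, 9.38% and 12.5% in the periphery. These libraries held 272, 262 and 166 TRBV5 clonotypes in the CNS and 869, 563 and 393 in the periphery. The 10 largest are thus a larger part of the CNS clonotypes, and the difference was not tested. Among the 100 largest clonotypes of a library, TRBV5 had 10, 16 and 6 in the CNS, against 0, 2 and 0 in the periphery. In CNS replicates 1 and 3 this is close to or below the TRBV5 share of all clonotypes (9.14% and 10.1%). TRBV5 clonotypes had 66.1, 163 and 118 reads each in CNS replicates 1, 2 and 3, where clonotypes of other V segments had 120, 156 and 215. The periphery values were 9.72, 43.3 and 30.6 reads for TRBV5 and 27.5, 47.3 and 68.9 for other V segments. The largest were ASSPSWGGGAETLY in CNS replicate 1 (1952 reads, 0.571%), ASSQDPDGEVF in CNS replicate 2 (3620 reads, 0.974%) and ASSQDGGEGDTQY in CNS replicate 3. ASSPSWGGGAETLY was also found in periphery replicate 2 (133 reads) and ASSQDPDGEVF in periphery replicate 3 (74 reads), each with its CNS nucleotide sequence. The largest periphery receptors, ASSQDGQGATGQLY, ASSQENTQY and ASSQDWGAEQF, had 76, 276 and 254 reads, or 0.0230% to 0.0851%.

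In DEREG mice the 10 largest TRBV5 clonotypes held 27.4% to 43.7% of TRBV5 reads in Treg of EAE E18 mice, 20.4% in Treg of the non-pregnant EAE sample and 9.27% in Treg of the naive sample, against 3.95% to 23.01% in Tcon. These shares were not tested, and the number of TRBV5 clonotypes differs between libraries, from 296 in Treg EAE E18 replicate 4 (37.0% in its 10 largest) to 1520 in Tcon of naive non-pregnant mice (3.95%). The largest TRBV5 receptor of any DEREG library was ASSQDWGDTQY in Treg EAE E18 replicate 3 (3282 reads, 0.832%), and the same nucleotide sequence had 91 reads in Tcon of naive E18 mice. In Treg EAE E18 replicates 1, 2, 4 and 5 the largest were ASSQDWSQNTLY (414 reads), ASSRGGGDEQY (523), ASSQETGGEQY (407) and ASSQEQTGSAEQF (1024). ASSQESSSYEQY led in Treg of non-pregnant EAE mice with 1383 reads and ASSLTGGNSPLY in Treg of naive mice with 725. In Tcon, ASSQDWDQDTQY led in EAE E18 mice (1021 reads), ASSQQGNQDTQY in EAE non-pregnant mice (481), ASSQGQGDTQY in naive E18 mice (202) and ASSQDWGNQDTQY in naive non-pregnant mice (92).

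**Figure D2:**
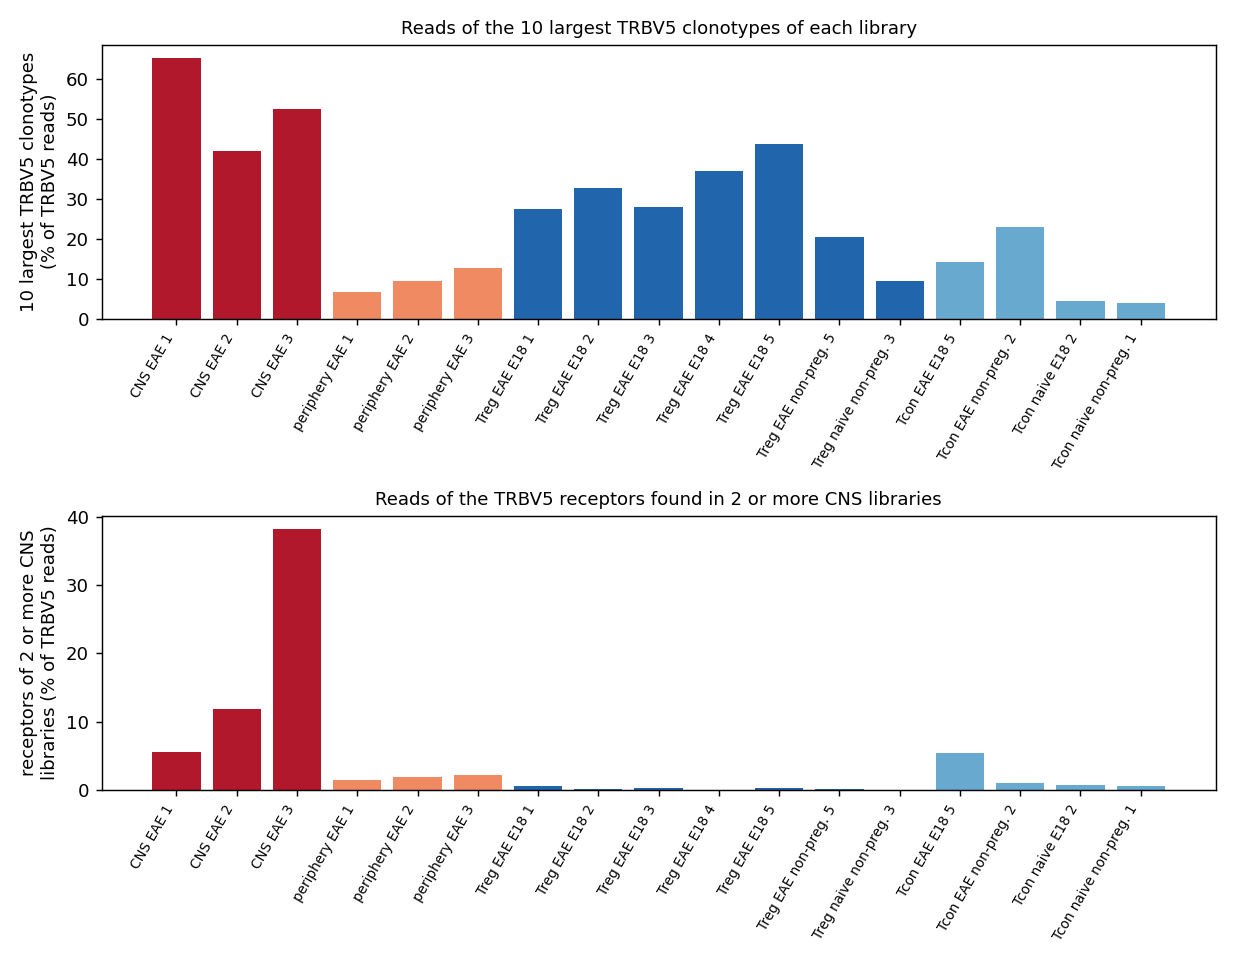
Percent of the TRBV5 reads of each library held by its 10 largest TRBV5 clonotypes (top, all rows) and by the 52 TRBV5 receptors found in 2 or more CNS libraries after the carry-over filter (bottom). The 3 CNS bars stand at 41.8% to 65.2% in the top plot, against 6.75% to 12.5% in the periphery, and CNS replicate 3 stands at 38.2% in the bottom plot. CNS libraries hold fewer TRBV5 clonotypes than periphery libraries, so 10 are a larger part of them. The receptors of the bottom plot were chosen by CNS libraries, so higher CNS bars there are built in.

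TRBV5 joined mostly to the J segments of cluster 2. Over 17 libraries the most used partners were TRBJ2-7 (20.4% ± 1.3 of TRBV5 clonotypes), TRBJ2-5 (19.2% ± 2.3) and TRBJ1-1 (10.2% ± 1.9), and the least used were TRBJ1-5 (0.766% ± 0.83), TRBJ1-4 (0.426% ± 0.41) and TRBJ1-7 (0.0676% ± 0.15; SD, n = 17). The medians of the other 7 lay between 2.97% and 10.3%. TRBJ2-5 and TRBJ2-7 each made up more of the TRBV5 clonotypes than of the clonotypes of other V segments in 16 of 17 libraries, and TRBJ2-3 in 15. TRBJ1-2 was used less with TRBV5 in 15 of 17 libraries, at a median of 2.97% against 5.20% for other V segments. These counts are a description, since the libraries share V and J primers.

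In the CNS, TRBJ2-5 was the partner of 23.5%, 21.8% and 24.1% of TRBV5 clonotypes in replicates 1, 2 and 3, against 16.4% to 19.3% in the periphery, and it was the 1 J of 13 (7.69%) with all CNS libraries above all periphery libraries. For other V segments TRBJ2-5 did overlap, with 16.1% to 17.5% in the CNS and 15.2% to 16.6% in the periphery. TRBJ2-4 was the 1 J of 13 with all CNS libraries lower, at 3.68% to 6.49% in the CNS and 7.44% to 10.1% in the periphery. CNS replicate 3 had 166 TRBV5 clonotypes, so 1 clonotype is a large step on this scale.

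**Figure D3:**
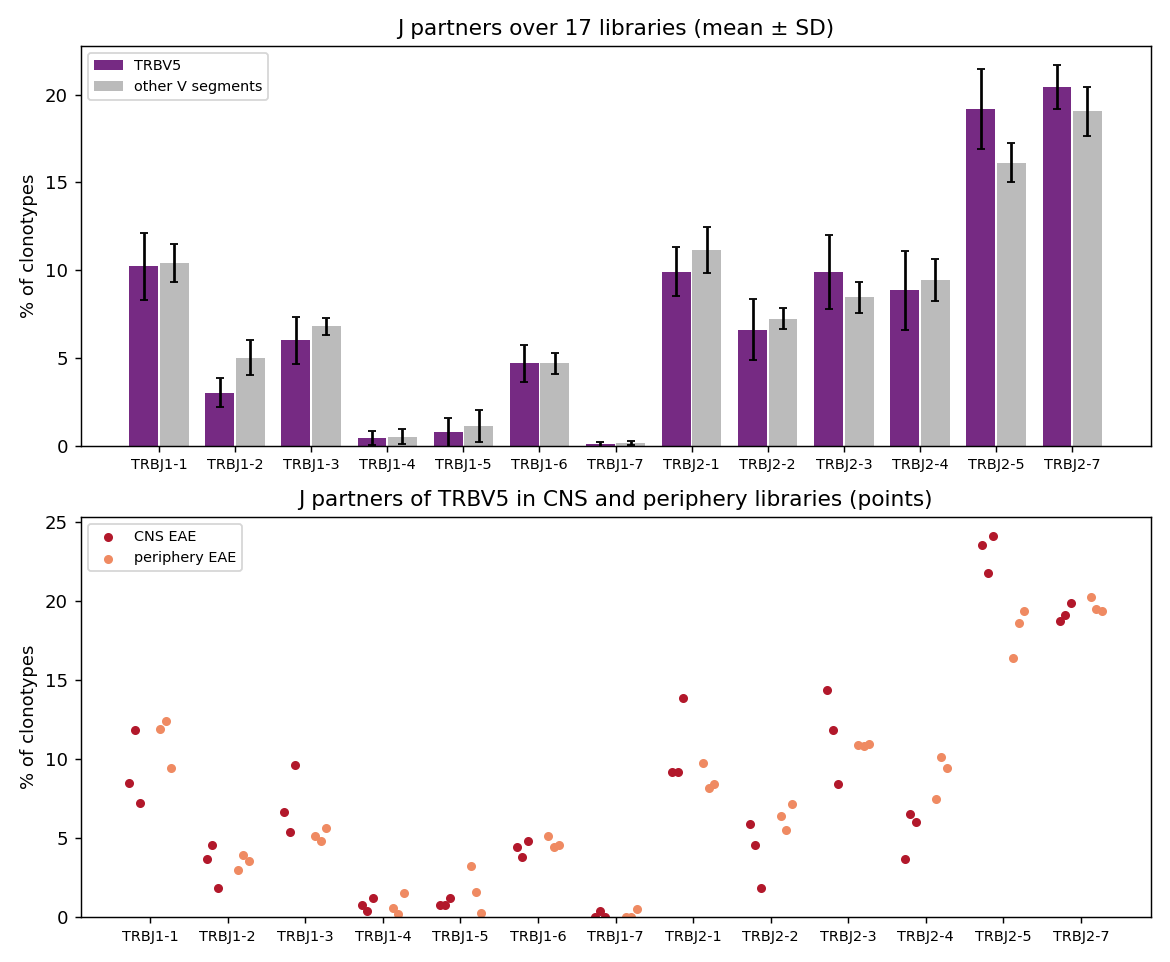
J partners in percent of clonotypes: above, TRBV5 and the other V segments as mean ± SD over 17 libraries; below, TRBV5 in each CNS and periphery library as points. TRBJ2-5 and TRBJ2-7 are the tallest TRBV5 bars (19.2% and 20.4%), and TRBJ2-5 is the J whose CNS points all lie above its periphery points.

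The CDR3 loops of TRBV5 clonotypes, each counted once over all rows, were longer in the CNS libraries than in the other 14. Their mean length was 14.65, 14.67 and 14.64 amino acids in CNS replicates 1, 2 and 3, against 14.37, 14.37 and 14.46 in periphery replicates 1, 2 and 3. The CNS mean was 0.254 amino acids above that of the periphery. Treg libraries had 14.22 to 14.42 and Tcon libraries 14.40 to 14.53. With at least 2 reads per rearrangement CNS replicate 2 had 14.50, below Tcon of EAE E18 mice at 14.52, and weighted by reads it had 14.395 against 14.415, so the order over all libraries depends on these settings. Of the 16 V segments with at least 20 clonotypes in every library, TRBV5 and TRBV4 (12.5%) had all CNS means above all periphery means.

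Position 6, the residue after CASSQ, is encoded in part by TRBV5 itself: its most frequent stretch of 18 V bases, tgtgccagcagccaagat, ends in an aspartate codon, and 96.9% of rearrangements with at least 17 V bases were acidic there. Of the TRBV5 rearrangements that were acidic at position 6, 90.3% had a V part of at least 17 bases. Such a V part was found in 53.0%, 54.8% and 54.4% of rearrangements in CNS replicates 1, 2 and 3, against 46.7%, 46.8% and 45.2% in periphery replicates 1, 2 and 3. Position 6 was acidic in 55.9%, 58.0% and 56.6% of TRBV5 clonotypes in CNS replicates 1, 2 and 3, against 49.8%, 51.9% and 49.4% in the periphery. All CNS libraries lay above all periphery libraries, which held for 4 of the 16 V segments (25%), and 1 of the 16 (6.25%) had all CNS libraries lower. The share was 43.6% to 50.4% in Treg and 47.3% to 53.3% in Tcon. A CASSQ start was found in 69.1% to 71.1% of CNS clonotypes, 64.5% to 67.1% of periphery clonotypes, 60.8% to 67.2% of Treg clonotypes and 66.4% to 69.9% of Tcon clonotypes.

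**Figure D4:**
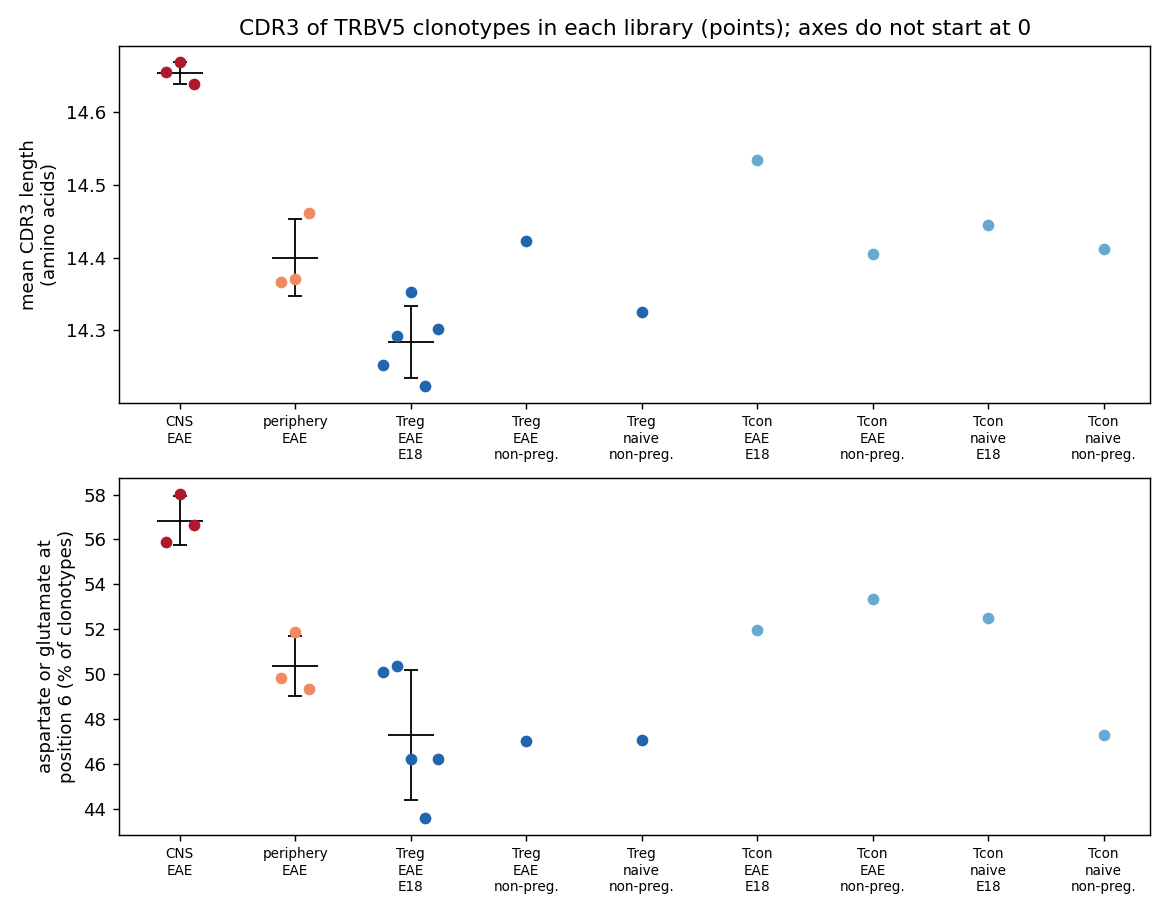
Mean CDR3 length in amino acids (top) and percent of clonotypes with aspartate or glutamate at position 6 (bottom) for the TRBV5 clonotypes of each library, with axes that do not start at 0 and mean ± SD for groups of 3 or 5. The 3 CNS points, 14.64 to 14.67 amino acids and 55.9% to 58.0%, are the highest in both plots.

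The receptors found in the most libraries were not particular to the CNS. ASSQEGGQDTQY was found in 9 of 17 libraries, with 250 reads in CNS replicate 3, 196 in periphery replicate 2, 1 to 462 in 3 Treg libraries and 1 to 61 in all 4 Tcon libraries. It was built from 8 different nucleotide sequences, of which 4 are shown because they give the same loop from different bases. Those of CNS replicate 3 and periphery replicate 2 differ at a single base, and whether error made this difference was not tested.
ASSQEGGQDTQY, CNS replicate 3: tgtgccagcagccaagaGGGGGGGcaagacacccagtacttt
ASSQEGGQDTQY, periphery replicate 2 and Tcon naive E18: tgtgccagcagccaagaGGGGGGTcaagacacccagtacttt
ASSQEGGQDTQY, Treg EAE E18 replicate 5 and Tcon EAE E18: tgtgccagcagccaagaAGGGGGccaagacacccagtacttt
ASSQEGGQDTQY, Tcon naive non-pregnant: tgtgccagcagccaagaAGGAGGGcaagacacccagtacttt

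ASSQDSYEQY was found in 8 libraries, with no CNS library among them, and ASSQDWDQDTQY, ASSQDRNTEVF and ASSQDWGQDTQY in 7 each. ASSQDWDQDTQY was the largest TRBV5 receptor of the EAE E18 Tcon library (0.251% of its reads) and had 134 and 116 reads in CNS replicates 2 and 3, which held different nucleotide sequences of it. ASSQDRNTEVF had 247 reads in CNS replicate 2 and 2 to 24 reads in 5 Treg libraries. All 5 widely shared receptors start with CASSQ and have an acidic residue at position 6.

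For each receptor the rearrangement with the fewest bases between the V and the J part was taken. The 8543 TRBV5 receptors of a single library had a median of 9 such bases. The 890 of 2 libraries had 7, and the 55 of 5 or more libraries had 5. A receptor with more nucleotide sequences has more joints to take the fewest from. The fall is therefore partly built in, and whether the joints themselves are shorter was not tested. An acidic residue at position 6 was present in 45.1% of receptors of 1 library, 54.4% of those of 2, 58.7% of those of 3, 83.1% of those of 4 and 87.3% of those of 5 or more. More than 1 nucleotide sequence encoded 4.06% of the first and 96.4% of the last group, although a receptor listed in more libraries also has more rows that can differ.

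**Figure D5:**
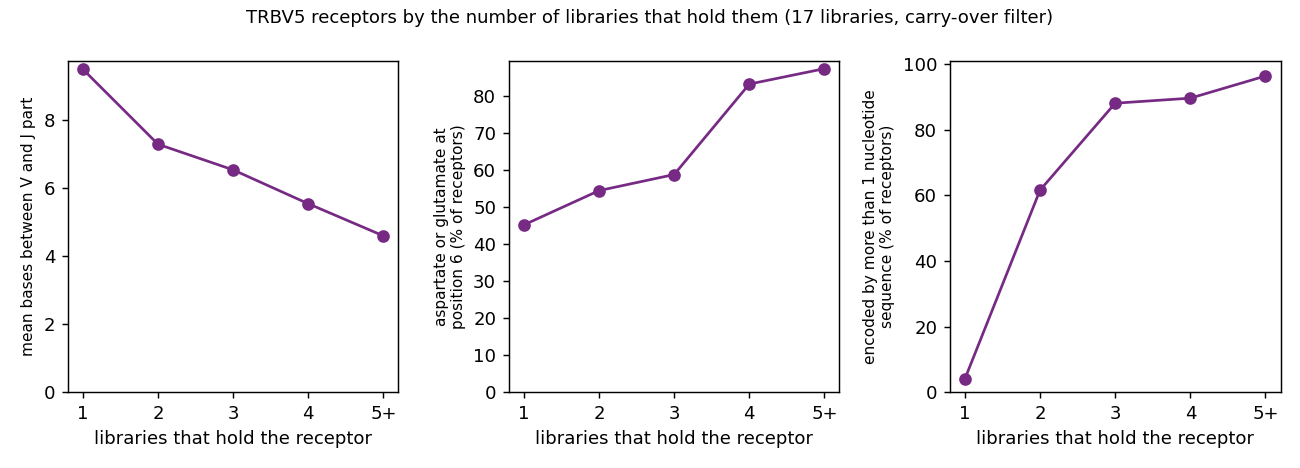
TRBV5 receptors grouped by the number of libraries that hold them after the carry-over filter (1, 2, 3, 4, and 5 or more of 17). Shown are the mean number of bases between the V and the J part, the percent with aspartate or glutamate at position 6, and the percent encoded by more than 1 nucleotide sequence. The number of bases is the fewest over all rearrangements of a receptor, which favours low values where a receptor has several. With more libraries the mean number of bases goes down (9.503 for 1 library, 4.60 for 5 or more) and both percents go up.

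The V assignment limits these counts. Of the 11438 TRBV5 sequences, 722 were also listed under another V segment in the same or another library, 497 of them under TRBV2, 112 under TRBV3 and 82 under TRBV4. The same CDR3 protein sequence also stood under TRBV2 in 2 libraries for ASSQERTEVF and in 2 for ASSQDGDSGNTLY, and under TRBV2 or TRBV4 in 7 libraries for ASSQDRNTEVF. The V part of AGTPGQSSGNTLY encodes CAGT, where the most frequent TRBV5 stretch encodes CASS, so its assignment to TRBV5 is less sure and was not tested. How reads were divided among V segments with a like CDR3 start is not given in the sources used here.

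Among DEREG mice, the share of TRBV5 did not pass the test between Treg and Tcon, E18 and non-pregnant, or EAE and naive samples. TRBV5 made up 6.93%, 7.97%, 9.08%, 6.73% and 7.24% of clonotypes in Treg EAE E18 replicates 1 to 5, 8.85% in Treg of the non-pregnant EAE sample and 9.06% in Treg of the naive sample. In Tcon it made up 8.82% and 7.13% in EAE mice (E18, then not pregnant) and 8.16% and 8.10% in naive mice in the same order. The groups overlapped in each contrast. With edgeR's quasi-likelihood test and Benjamini-Hochberg adjustment over all 34 V and J segments, the log2 change of TRBV5 in Treg over Tcon was -0.01 (SE 0.10, adjusted p = 0.896), with 2 SE spanning -0.22 to 0.19. In this fit 4 of the 34 segments (11.8%) passed.

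For E18 over non-pregnant the edgeR log2 change of TRBV5 clonotypes was -0.06 (SE 0.09, adjusted p = 0.973, 2 SE from -0.24 to 0.12), and for EAE over naive it was -0.09 (SE 0.10, adjusted p = 0.793, 2 SE from -0.30 to 0.11). No segment passed edgeR in either contrast (0%), and 1 and 2 segments had an unadjusted p under 0.05, where DESeq2 called 1 and 0 segments. The fit of Treg over Tcon rests on 3 Tcon libraries, since the naive E18 term takes up the only library of its condition.

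Of the 4 V segments upstream of TRBV5, TRBV4 fell in Treg, with 2.93% to 4.25% of Treg and 4.38% to 5.10% of Tcon clonotypes (log2 change -0.48, SE 0.10, edgeR adjusted p = 0.0113). This edgeR call was lost without Treg of naive non-pregnant mice (adjusted p = 0.0999) or without Tcon of naive non-pregnant mice (adjusted p = 0.0909). TRBV1 had a log2 change of -0.23 (adjusted p = 0.0534), TRBV2 of 0.02 and TRBV3 of 0.12 in the same fit, none past the threshold. TRBV1 passed edgeR with at least 2 reads per rearrangement (log2 change -0.29, adjusted p = 0.00842), with the carry-over filter at 20 times (-0.27, adjusted p = 0.0423), without Treg EAE E18 replicate 3 (-0.24, adjusted p = 0.0305) and without Tcon of EAE E18 mice (-0.31, adjusted p = 0.0497). None of the 4 passed for E18 over non-pregnant or EAE over naive.

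By reads, TRBV5 did not pass the test in any contrast. It held 1.39%, 1.67%, 8.94%, 1.73% and 2.87% of the reads of Treg EAE E18 replicates 1 to 5, 7.51% in Treg of the non-pregnant EAE sample (Wilson 95% interval 7.43% to 7.59%) and 5.83% in Treg of the naive sample (5.77% to 5.90%). Tcon held 5.26% (5.19% to 5.33%) and 2.31% (2.27% to 2.36%) in EAE mice (E18, then not pregnant) and 7.55% (7.46% to 7.63%) and 4.38% (4.32% to 4.45%) in naive mice in the same order. The groups overlapped in each contrast. Replicate 3 of the Treg EAE E18 group stood apart, with 11 TRBV5 clonotypes among its 100 largest against 0 to 4 in the other 4. The edgeR log2 changes were 0.14 for Treg over Tcon (SE 0.57, adjusted p = 0.965), 0.01 for E18 over non-pregnant (SE 0.52, adjusted p = 0.994) and -0.38 for EAE over naive (SE 0.61, adjusted p = 0.919). Their 2 SE ranges reach from -1.59 to 1.27, so changes within them were not detectable here. No segment of 36 passed edgeR by reads in any contrast (0%), 1, 2 and 1 had an unadjusted p under 0.05, and the calls of DESeq2 numbered 1, 0 and 0.

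Of the 10 TRBV5-J pairs with a mean of at least 10 clonotypes, 0 passed the edgeR test in any of the 3 contrasts, and 0 had an unadjusted p under 0.05 in edgeR or DESeq2. Among all 169 V-J pairs, 21 (12.4%) passed for Treg over Tcon and 0 (0%) for each of the others. The TRBV5 pairs had edgeR log2 changes of -0.30 (TRBJ2-3) to 0.39 (TRBJ1-6) in Treg over Tcon, with a smallest adjusted p of 0.271. Their changes ran from -0.26 to 0.17 for E18 over non-pregnant and from -0.27 to 0.35 for EAE over naive.

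CDR3 features of TRBV5 clonotypes did not pass the test between Treg and Tcon. Treg libraries had a mean length of 14.31 ± 0.066 amino acids over 7 libraries, against 14.45 ± 0.060 over 4 Tcon libraries (SD). Within the 3 conditions that hold both cell types, Treg was lower than Tcon by 0.106 on average, taken as Treg minus Tcon (-0.106), in an exact two-sided permutation test of 7 Treg against 3 Tcon libraries with p = 0.0833 and an adjusted p of 0.25 over the 3 features, where the 24 assignments allow no p below 0.0417 and a single feature at that smallest p would have an adjusted p of 0.125, unless the others were low as well. Hydrophobic residues at both positions 6 and 7 were found in 0.234% to 2.19% of Treg and 0.395% to 1.28% of Tcon clonotypes, a mean difference within conditions of 0.484 percentage points (exact permutation p = 0.167, adjusted p = 0.25). A J of cluster 2 was used by 73.1% to 78.9% of Treg and 72.0% to 77.8% of Tcon clonotypes, a mean difference of -0.04 percentage points (exact permutation p = 1, adjusted p = 1).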

How the data were processed

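TCRβ rearrangements of 17 libraries were analysed, of 46 samples listed. The other 29 were not analysed here. Per the labels' protocols, genomic DNA was amplified by PCR with primers for all listed mouse V and J segments. The deposited tables give read counts per CDR3 nucleotide sequence with no normalization, and the deposited fraction of reads equalled the count over the table's total. Build mm10 is named in the submitters' processing notes, and the program that assigned segments is not given in the sources used here. Of 12513 TRBV5 rows, 0 held a stop codon or frame shift, and 115 lacked the usual first or last CDR3 residue. All were kept.

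Clonotypes (each counted once) and reads were summed per V and J segment, and clonotypes per V-J pair. Features with a mean of at least 10 entered the quasi-likelihood test of edgeR 4.0.16 (TMM scaling, R 4.3.3), adjusted by Benjamini-Hochberg over all features at 0.05, in the 11 DEREG libraries that did not choose TRBV5. Treg and Tcon were compared with the condition as a term, the other contrasts with the other factors as terms, and a group of 1 library was assumed to vary like the others. The fit was tested on simulated data. CDR3 features were compared by exact permutation within conditions. DESeq2 1.42.0, no TMM, no filter on low counts, the carry-over filter at 100 times, at least 2 reads, CDR3 features weighted by reads, and each library left out were the alternatives, and the filter at 20 times was added after seeing the data. Named receptors are those in all 3 CNS libraries, the 10 largest in at least 2 CNS libraries, the largest of each library and the 5 in most libraries. Named V segments are TRBV1 to TRBV4 and the 3 most like TRBV5. Those with all CNS clonotype shares above all periphery shares were also named, after the values were seen. The position 6 measure was chosen after its values were seen. So was the count of receptors that at least 1 pair of libraries shared with no sequence in common. The same holds for the count in at least 2 CNS libraries and the V segments ranked above TRBV5 in it. It also holds for the J segments named beyond the 3 most and 3 least used. TRBV5, the lists and the tests were chosen with earlier results of these data known. Other steps used Python 3.11.15 with pandas 2.3.3, numpy 2.4.6, matplotlib 3.10.9 and, for permutations, scipy 1.17.1.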

Additional observations from a re-analysis of the deposited data

Results flagged for a closer look

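Among the 5 Treg libraries from EAE mice at E18, 1 lay far from the other 4 in a pair of measures, by the gap to its nearest neighbour over the range of the group (Dixon's 95% critical value 0.71 for 5 samples). In replicate 3, TRBV5 held 8.94% of reads, against 1.39% to 2.87% in the other 4 libraries, a gap of 0.803 of the range. The reads per TRBV5 clonotype there were 61.5, against 11.2 to 16.3 in the others, a gap of 0.898 of the range. The 9 measures looked at in this way are related, and chance flags about 1 in 20 groups. Of 6 interaction fits for TRBV5 (cell type with gestation, cell type with immunization, and gestation with immunization, by clonotypes and by reads), 0 passed, with adjusted p from 0.437 to 0.994 in edgeR.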

How the results depend on the processing

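No paired analysis was possible because the tested groups share fewer than 2 replicate numbers (only replicate 5 stands in both Treg and Tcon of EAE E18 mice) and CNS against periphery carries no test. In every alternative run for the DEREG contrasts, TRBV5 and its J pairs stayed short of the threshold, with the lowest adjusted p of TRBV5 at 0.359. The 3 CDR3 features could hardly pass in so few assignments, so their p-values say nothing of stability. Signs near 0 turned. By clonotypes, the Treg over Tcon log2 change of -0.01 became 0.0165 with DESeq2, 0.0260 without TMM and 0.000566 with the carry-over filter at 20 times, and leaving out 1 library gave -0.10 to 0.17. Leaving out 1 library gave -0.16 to 0.0195 for E18 over non-pregnant and -0.17 to 0.0290 for EAE over naive. By reads, E18 over non-pregnant became -0.12 without TMM, and leaving out 1 library gave -0.36 to 0.64, against -0.23 to 0.90 for Treg over Tcon and -0.78 to 0.10 for EAE over naive. Without Treg EAE E18 replicate 3 the log2 changes by reads were -0.18 for Treg over Tcon and -0.33 for E18 over non-pregnant. For J cluster 2 the difference ran from -2.83 to 1.38 percentage points with 1 library left out. In the description of CNS over periphery, at least 2 reads per rearrangement moved the log2 ratio of clonotype shares to 0.63, the length difference to 0.198 and the acidic share to 9.55 percentage points, and the carry-over filter moved the length difference to 0.306 (100 times) and 0.331 (20 times). Without any 1 library the log2 ratio by reads was 0.34 to 1.42. TRBV5 receptors in all 3 CNS libraries numbered 14 with no filter and 3 with the filter at 20 or 10 times. They numbered 2 with at least 2 reads and 1 when counted by V, J and nucleotide sequence. TRBV5 receptors in at least 2 CNS libraries numbered 111, 20, 17, 36 and 41 under the same settings (20 times before 10 times). The cause of these shifts was not tested. CNS libraries hold 166 to 272 TRBV5 clonotypes, which limits what their shares can show.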
